A study of Mus musculus with 20 samples.

Results

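Metabotropic glutamate receptors are G protein-coupled receptors that set how strongly glutamate synapses act, on a slower time scale than the ion channels that glutamate opens. The group I receptor *Grm5* sits mainly behind the synapse and couples through Gq to phospholipase C, calcium release and local protein synthesis. The group II receptors *Grm2* and *Grm3* and the group III receptors *Grm4*, *Grm7* and *Grm8* couple through Gi/o, lower cAMP and, at presynaptic terminals, curb transmitter release, while *Grm3* is also made by astrocytes. The genes described here were chosen by symbol from the count files: *Grm2*, *Grm3*, *Grm4*, *Grm5*, *Grm7* and *Grm8*, which are 6 of 47729 genes. Each of the 6 was counted in all 20 libraries, with between 93 and 4521 reads, and each passed the filter on low counts.

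The libraries came from P7 mice of strain C57Bl/6J: 5 WT mice (mice 1 to 5) and 5 mice labelled Ube3aOE (mice 6 to 10), with 1 hippocampus and 1 cortex library from each mouse. The Ube3aOE mice, called *Ube3a+2* here, carry extra copies of *Ube3a* on a bacterial artificial chromosome transgene with flanking mouse sequence, and the study characterised mainly 1 such line, line E. Labels give 3 females and 2 males among the WT mice and 2 females and 3 males among the *Ube3a+2* mice. In 2 of the WT mice, *Xist* and the Y-linked genes went against the labelled sex in both libraries.

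Reads counted on genes came to between 14191093 and 16752326 a library. Levels are given as CPM, the count of a gene scaled to the TMM-adjusted total of its library. *Ube3a* had 54.4 to 76.8 CPM in the 10 WT libraries and 129.6 to 194.7 CPM in the 10 *Ube3a+2* libraries, with no overlap between the genotypes. The 7 hippocampal markers summed to between 260.2 and 473.7 CPM in hippocampus and to between 37.5 and 131.8 CPM in cortex, while the 6 neocortical markers summed to 145.3 to 250.9 and 307.6 to 455.0 CPM. Of the neocortical markers, *Cux2*, *Rorb* and *Tbr1* were lower in hippocampus at an adjusted p under 0.05 by edgeR's quasi-likelihood test. *Fezf2* (log2 difference -0.03) and *Lamp5* (-0.22) were not called, and *Rspo1* was higher in hippocampus (0.78). Hippocampus libraries were searched for markers of thalamus, striatum and choroid plexus, and cortex libraries for those of hippocampus, thalamus and choroid plexus. Neocortical markers in hippocampus and striatum markers in cortex were not part of this search. In 6 libraries the summed markers of another brain region, among those searched, exceeded 2 times the median of their tissue. These were the hippocampus libraries of mice 4, 7 and 10 for thalamus, of mouse 9 for striatum and of mice 7 and 9 for choroid plexus, and the cortex libraries of mice 8 and 9 for hippocampus, with mouse 8 also at the limit for choroid plexus (15.8 CPM). Of these 6 libraries 5 came from *Ube3a+2* mice. Where a result changed without them, the value without them is given beside it, a comparison chosen after the values were seen. The cortex library of WT mouse 2 stood apart in another way, with the lowest total and 69.7% of its reads on genes, against 76.0% to 81.2% in the other 19 libraries. In bulk tissue, fewer cells of a type and less RNA per cell cannot be told apart.

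Of the 6 receptor genes, 5 differed between hippocampus and cortex, with the largest difference in *Grm3*, and none differed between the genotypes at an adjusted p under 0.05. The promoters of the 4 receptors that were lower in hippocampus are printed here. *Grm4* and *Grm5* had no entry in the RefSeq promoter table used, so no receptor without that direction could be set beside them. The letters are the bases before the start in that promoter table, read 5′ to 3′ on the strand of the gene from build GRCm38.p6. Every GC box (GGGCGG, on either strand) is in capitals. The gene positions given below come from another annotation, GENCODE M21, and the windows of *Grm2*, *Grm3* and *Grm7* do not border on them. The windows are chr9:106656110-106656359 (minus strand) for *Grm2*, chr5:9725353-9725602 (minus) for *Grm3*, chr6:110645262-110645511 (plus) for *Grm7* and chr6:28135179-28135396 (minus) for *Grm8*, where 218 bases lie outside the annotated gene.
Grm2: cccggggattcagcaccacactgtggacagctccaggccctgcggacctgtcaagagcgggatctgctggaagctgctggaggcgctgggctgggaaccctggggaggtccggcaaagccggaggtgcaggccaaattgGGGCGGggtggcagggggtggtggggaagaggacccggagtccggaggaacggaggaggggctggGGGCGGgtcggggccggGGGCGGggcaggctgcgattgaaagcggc
Grm3: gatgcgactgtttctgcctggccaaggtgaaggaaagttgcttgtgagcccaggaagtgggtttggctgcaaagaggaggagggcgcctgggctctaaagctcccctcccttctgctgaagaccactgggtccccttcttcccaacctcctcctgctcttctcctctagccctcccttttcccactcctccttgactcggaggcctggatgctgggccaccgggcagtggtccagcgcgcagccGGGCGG
Grm7: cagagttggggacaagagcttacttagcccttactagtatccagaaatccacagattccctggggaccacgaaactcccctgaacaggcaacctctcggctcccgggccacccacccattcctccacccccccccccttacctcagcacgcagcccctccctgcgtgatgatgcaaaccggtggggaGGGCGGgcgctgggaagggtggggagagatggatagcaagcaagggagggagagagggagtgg
Grm8: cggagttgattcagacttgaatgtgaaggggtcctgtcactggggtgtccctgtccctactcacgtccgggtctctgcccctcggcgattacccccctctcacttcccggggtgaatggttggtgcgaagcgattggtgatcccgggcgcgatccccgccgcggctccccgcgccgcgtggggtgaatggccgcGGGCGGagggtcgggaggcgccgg

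Each of the 4 windows held at least 1 GC box, with 3 in *Grm2* and 1 in each of the others, whereas 32.7% of 32851 mouse promoters held one in the 250 bases before the start. None of the 4 held the letters TATAAA (12.4% of all promoters) or CACGTG (6.02%), and CCAAT was found once in *Grm2* and once in *Grm8* (33.9%), each searched on both strands. In *Grm2* the CCAAT shared 1 base with a GC box, and no other matches overlapped. The G and C content was 71.2% in *Grm2*, 62.4% in *Grm3*, 62.0% in *Grm7* and 68.4% in *Grm8*, against a median of 52.4% over all promoters. A match of letters is a description and not a binding site.

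*Grm5* (ENSMUSG00000049583, chromosome 7, 87584168 to 88134907 on the plus strand of GRCm38, 550.7 kb) was the most abundant of the 6 by count. It is the main group I receptor of the young forebrain and a trigger of synaptic long-term depression. In WT mice 1 to 5, *Grm5* had 262.5, 243.8, 190.0, 184.9 and 201.9 CPM in hippocampus and 196.7, 145.8, 185.3, 176.1 and 193.9 CPM in cortex. In *Ube3a+2* mice 6 to 10 it had 247.0, 211.8, 267.2, 282.2 and 231.1 CPM in hippocampus and 180.5, 175.9, 236.9, 248.0 and 219.2 CPM in cortex. Hippocampus was the higher tissue in 10 of 10 mice, though the ranges of the tissues overlapped. The fitted log2 difference was 0.25 (SE 0.082), a rise of 1.19-fold in hippocampus, with an adjusted p of 0.0161 by edgeR's quasi-likelihood test with Benjamini-Hochberg adjustment over 15661 genes. Without the 6 libraries with markers of another region it was 0.38 with an adjusted p of 0.00289.

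*Grm3* (ENSMUSG00000003974, chromosome 5, 9485541 to 9725170 on the minus strand, 239.6 kb), a group II receptor of neurons and astrocytes, separated the tissues most clearly. In WT mice 1 to 5, *Grm3* had 86.0, 76.1, 90.7, 103.6 and 104.4 CPM in cortex and 53.4, 73.3, 56.8, 50.0 and 49.2 CPM in hippocampus. In *Ube3a+2* mice 6 to 10 it had 94.0, 115.4, 78.2, 83.5 and 119.5 CPM in cortex and 58.3, 63.0, 57.4, 65.7 and 61.9 CPM in hippocampus. All 10 hippocampus libraries were below all 10 cortex libraries, a separation that 9.27% of all genes tested showed in either direction. *Grm3* was lower in hippocampus in 10 of 10 mice and *Grm5* higher in 10 of 10, so that 2 of the 6 receptors moved the same way in every mouse, against 28.2% of all genes. The margin within a mouse was narrowest in mouse 2, at -0.05 on the log2 scale, and widest at -1.09. The fitted log2 difference of *Grm3* was -0.69 (SE 0.087, adjusted p = 1.54e-06 by edgeR's quasi-likelihood test with Benjamini-Hochberg adjustment), a level in hippocampus that was 0.619 times the level in cortex. The 6 astrocyte markers, none of them at 0, summed to 1197 to 1750 CPM in hippocampus and 809.0 to 1023 CPM in cortex. By edgeR's quasi-likelihood test 4 of the 6 were higher in hippocampus, while *Gjb6*, a gap junction protein, was lower (-0.98) and *Aldh1l1* was not called (-0.11). Their part in the difference of *Grm3* was not tested.

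**Figure D1:**
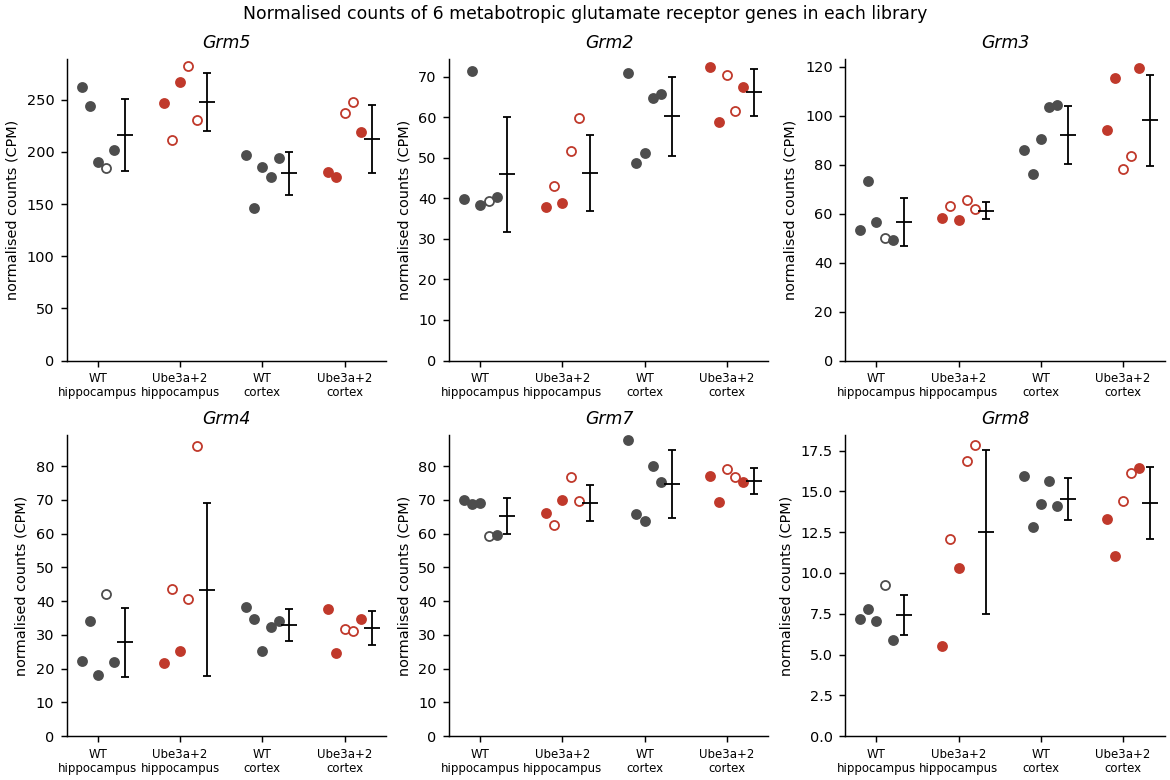
Normalised counts (CPM, y axes from 0) of the 6 receptor genes in each library by genotype and tissue (x axes), with the mean and SD of each group of 5 libraries as black bars; open circles are the 6 libraries with raised markers of another brain region. *Grm3* in hippocampus stayed at or below 73.3 CPM and in cortex at or above 76.1 CPM, and the highest *Grm4* and *Grm8* values in hippocampus were open circles.

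*Grm2* (ENSMUSG00000023192, chromosome 9, 106643095 to 106656082 on the minus strand, 13.0 kb), a presynaptic group II receptor that acts as a brake on glutamate release, was also lower in hippocampus. In WT mice 1 to 5, *Grm2* had 39.9, 71.4, 38.4, 39.4 and 40.4 CPM in hippocampus and 70.9, 48.8, 51.2, 64.8 and 65.8 CPM in cortex. In *Ube3a+2* mice 6 to 10 it had 37.9, 43.0, 38.9, 51.6 and 59.8 CPM in hippocampus and 72.3, 58.8, 70.4, 61.6 and 67.5 CPM in cortex. Mouse 2 was the single exception among the 10 mice, with the highest *Grm2* of all hippocampus libraries and the lowest of all cortex libraries. Its cortex library, the one with the lowest share of reads on genes, was also the lowest cortex library for *Grm3* and *Grm5*. The hippocampus library of mouse 2 also had the highest summed neocortical markers of its tissue, at 250.9 CPM, and the part of this in its *Grm2* value was not tested. The log2 difference between hippocampus and cortex was -0.46 (SE 0.12, adjusted p = 0.00326 by edgeR's quasi-likelihood test with Benjamini-Hochberg adjustment), which was -0.59 without mouse 2 and -0.48 without its cortex library alone. The value without the 6 libraries was -0.56 with an adjusted p of 0.00925 in the same test. Both libraries of mouse 2 are kept in that value.

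*Grm7* (ENSMUSG00000056755, chromosome 6, 110645581 to 111567230 on the plus strand, 921.6 kb), a group III receptor of the presynaptic release site with low affinity for glutamate, varied least. Its level was 59.2 to 76.9 CPM in hippocampus and 63.7 to 87.9 CPM in cortex, with coefficients of variation of 8.04% and 9.54% over 10 libraries each. *Grm7* was lower in hippocampus in 8 of 10 mice, with a log2 difference of -0.16 (SE 0.057) and an adjusted p of 0.021 by edgeR's quasi-likelihood test with Benjamini-Hochberg adjustment. That call rested on single mice: the adjusted p was 0.0514 without mouse 1, 0.0781 without mouse 4, 0.0607 without mouse 5 and 0.052 without mouse 6. It was also lost without the 6 libraries, where the log2 difference was -0.13 and the adjusted p was 0.150. The antisense gene *Gm20387* shares 130 exon bases with *Grm7* and had 23 to 52 counts in a library, few beside the 881 to 1378 counts of *Grm7*.

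*Grm8* (ENSMUSG00000024211, chromosome 6, 27275119 to 28135178 on the minus strand, 860.1 kb), a presynaptic group III receptor with high affinity for glutamate, was the scarcest of the 6, with 93 to 298 counts a library. In WT mice 1 to 5, *Grm8* had 7.15, 7.81, 7.03, 9.25 and 5.89 CPM in hippocampus and 15.9, 12.8, 14.2, 15.7 and 14.1 CPM in cortex. In *Ube3a+2* mice 6 to 10 it had 5.54, 12.1, 10.3, 16.9 and 17.9 CPM in hippocampus and 13.3, 11.0, 14.4, 16.1 and 16.5 CPM in cortex. Hippocampus was lower in 5 of 5 WT mice, whereas it was higher in 3 of the *Ube3a+2* mice (7, 9 and 10). The log2 difference between the tissues was -0.58 (SE 0.15, adjusted p = 0.00317 by edgeR's quasi-likelihood test with Benjamini-Hochberg adjustment) over all libraries. The hippocampus libraries of mice 7, 9 and 10 are among the 6 with markers of another region, and without the 6 the difference was -0.92 with an adjusted p of 3.46e-05.

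*Grm4* (ENSMUSG00000063239, chromosome 17, 27422387 to 27521403 on the minus strand, 99.0 kb), a presynaptic group III receptor best known from cerebellar granule cells, did not have a direction that held. In WT mice 1 to 5, *Grm4* had 22.2, 34.3, 18.1, 42.2 and 22.0 CPM in hippocampus and 38.2, 34.8, 25.3, 32.3 and 34.2 CPM in cortex. In *Ube3a+2* mice 6 to 10 it had 21.7, 43.5, 25.2, 40.5 and 85.9 CPM in hippocampus and 37.8, 24.6, 31.9, 31.1 and 34.8 CPM in cortex. The cortex libraries spanned 24.6 to 38.2 CPM, while 4 hippocampus libraries lay below that range and 4 above it. The 4 above were those of mice 4, 7, 9 and 10, which are the 4 hippocampus libraries with raised markers of thalamus, striatum or choroid plexus. Over all libraries the log2 difference was 0.10 (SE 0.22, 95% interval -0.36 to 0.55, adjusted p = 0.740 by edgeR's quasi-likelihood test with Benjamini-Hochberg adjustment), and it was -0.00335 with the mouse as a block. Without the 6 libraries *Grm4* was lower in hippocampus by -0.45 on the log2 scale, with an adjusted p of 0.0246 in the same test. That fit leaves out the 4 hippocampus libraries with the highest *Grm4*, so its value is no separate support for a direction.

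The thalamus markers beside these values summed to 133.9, 150.6, 130.5, 489.8 and 138.2 CPM in the hippocampus of WT mice 1 to 5, and to 138.9, 584.9, 204.0, 157.6 and 1153 CPM in that of *Ube3a+2* mice 6 to 10. Mouse 10 had the highest thalamus sum as well as the highest *Grm4* and *Grm8*. The striatum markers summed to 641.4 CPM in the hippocampus of mouse 9 and to between 55.7 and 76.2 CPM in the other 9 hippocampus libraries. The choroid plexus markers summed to 78.6 CPM in mouse 7 and 33.4 CPM in mouse 9, against 8.61 to 19.1 CPM in the others. All 6 thalamus and all 6 striatum markers had a mean of at least 1 CPM in both hippocampus groups, as did 5 of 7 choroid plexus markers in WT and 6 of 7 in *Ube3a+2* hippocampus, and no marker was at 0 in every library of a group. The 5 markers of cerebellar granule cells, in which *Grm4* is best known, summed to 48.9 to 262.7 CPM in hippocampus and 18.7 to 43.5 CPM in cortex. *Neurod1* (log2 difference 1.73) and *Zic1* (2.72, up to 218.3 CPM in mouse 10) were higher in hippocampus. *Cbln3* was not called (0.05), and *Barhl1* reached at most 0.323 CPM. Of these 5 markers 3 had a mean of at least 1 CPM in each group, while the defining *Gabra6* was at 0 in every WT cortex library and reached at most 0.123 CPM in hippocampus. The part of these cells or regions in the values of *Grm4* and *Grm8* was not tested.

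**Figure D2:**
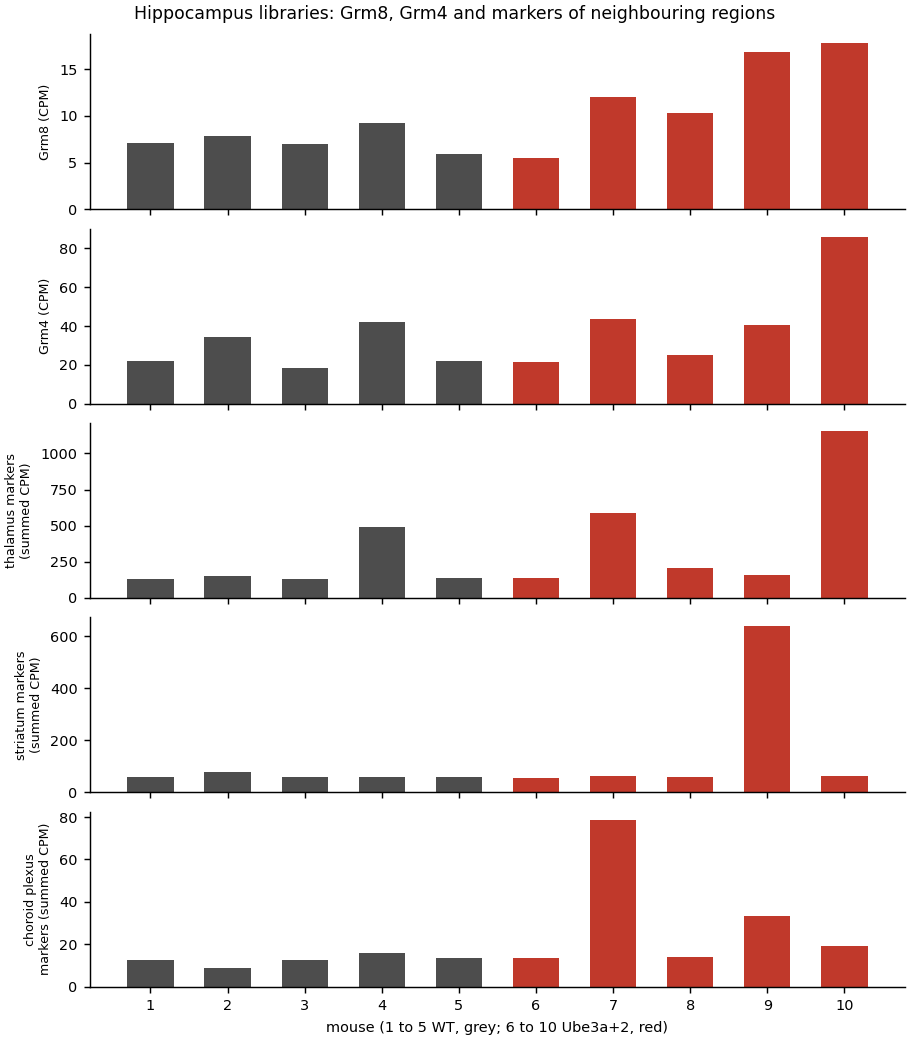
*Grm8*, *Grm4* and the summed markers of thalamus, striatum and choroid plexus (CPM, y axes from 0) in the 10 hippocampus libraries, by mouse (x axis; WT grey, *Ube3a+2* red). Mouse 10 stands highest for *Grm8* (17.9 CPM), *Grm4* (85.9 CPM) and thalamus markers (1153 CPM), and mouse 9 for striatum markers (641.4 CPM).

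Counted together, 5 of 6 receptors passed an adjusted p of 0.05 between the tissues by edgeR's quasi-likelihood test, where 50.9% of all 15661 genes did. One receptor was higher in hippocampus, *Grm5*, against 25.3% of all genes, and 4 were lower, against 25.6%. Differences past 0.5 on the log2 scale were found in 2 receptors, *Grm3* and *Grm8*, against 19.2% of all genes. The median log2 difference of the 6 was -0.31, and that of all genes tested was -0.01. By size, the difference of *Grm3* was larger than that of 86.7% of all genes, that of *Grm8* larger than 83.1%, and that of *Grm4* larger than 28.0%. Again 5 receptors were called without the 6 libraries, with *Grm4* in and *Grm7* out, where 7310 of 15957 genes were called. The hippocampus libraries left out were the 4 with the highest *Grm4*, so its call there is no separate support for a direction.

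Taken by genotype, with 5 mice each, 2 of 6 receptors were called in WT mice (37.1% of all genes) and 2 of 6 in *Ube3a+2* mice (33.2%). In WT mice these were *Grm3*, at -0.71 (SE 0.12, adjusted p = 0.000144 by edgeR's quasi-likelihood test), and *Grm8*, at -0.97 (SE 0.22, adjusted p = 0.00147). In *Ube3a+2* mice these were *Grm3*, at -0.68 (SE 0.12, adjusted p = 0.00029 by edgeR's quasi-likelihood test), and *Grm2*, at -0.52 (SE 0.17, adjusted p = 0.0221). With the mouse as a block *Grm2* was no longer called in *Ube3a+2* mice (-0.53, adjusted p = 0.0514 by edgeR's quasi-likelihood test), and *Grm5* was called in WT mice (0.26, adjusted p = 0.0388). Without mouse 2, *Grm2* in WT mice was -0.67 with an adjusted p of 0.00029, and 4 of 6 receptors were called there. Without the 6 libraries 3 receptors were called in WT mice (5526 of 15957 genes) and 4 in *Ube3a+2* mice (4350 of 15957 genes). In *Ube3a+2* mice *Grm8* was then -0.77 with an adjusted p of 0.0139 by edgeR's quasi-likelihood test. That setting left only 2 hippocampus and 3 cortex libraries of *Ube3a+2* mice, and the spread was estimated over all libraries kept. A call in one genotype and not in the other does not show a difference, so the difference itself was tested as an interaction. It was called for 0 of 6 receptors and for 0% of all genes by edgeR's quasi-likelihood test, with 590 genes at an unadjusted p under 0.05, and DESeq2 also called 0 genes (740 under 0.05). The largest was *Grm8*, at 0.78 on the log2 scale (95% interval 0.15 to 1.41, unadjusted p = 0.0173, adjusted p = 0.997 by edgeR's quasi-likelihood test), which was 0.29 without the 6 libraries.

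The comparison of the genotypes within each tissue asks whether extra *Ube3a* changes receptor transcripts. None of the 6 was called in hippocampus, where 0.00657% of all genes were called by edgeR's quasi-likelihood test, or in cortex, where 0.00669% were, which is *Ube3a* alone in each. At an unadjusted p under 0.05 that test listed 1098 genes in hippocampus and 663 in cortex, among them 1 receptor in each tissue (*Grm8* in hippocampus, *Grm5* in cortex), and DESeq2 also called 0 of the 6 in both. In hippocampus the fitted log2 fold changes from WT to *Ube3a+2* were 0.01 for *Grm2*, 0.08 for *Grm7*, 0.11 for *Grm3*, 0.19 for *Grm5*, 0.64 for *Grm4* and 0.75 for *Grm8*. In cortex they were -0.04 for *Grm4*, -0.03 for *Grm8*, 0.02 for *Grm7*, 0.09 for *Grm3*, 0.13 for *Grm2* and 0.24 for *Grm5*. The 95% interval lay inside -0.5 to 0.5, the border used in the study, for 4 of 6 receptors in hippocampus (69.9% of all genes) and for 6 of 6 in cortex (73.8%).

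The intervals that reached past that border were those of *Grm4* and *Grm8* in hippocampus. *Grm8* had a mean of 7.43 CPM ± 1.23 (SD, n = 5) in WT and 12.5 CPM ± 5.03 (SD, n = 5) in *Ube3a+2* hippocampus. The fitted log2 fold change had a 95% interval of 0.16 to 1.34, an unadjusted p of 0.018 and an adjusted p of 0.668 by edgeR's quasi-likelihood test. Of the 2 *Ube3a+2* hippocampus libraries without raised markers, that of mouse 6 had the lowest *Grm8* of all 10 hippocampus libraries, at 5.54 CPM. The other, that of mouse 8, had 10.3 CPM, above the highest WT value of 9.25 CPM. Without the hippocampus libraries of mice 4, 7, 9 and 10, which leaves 4 WT and 2 *Ube3a+2* libraries, the log2 fold change of *Grm8* was 0.18 and that of *Grm4* was -0.04. *Grm4* had a mean of 27.8 CPM ± 10.1 (SD, n = 5) in WT and 43.4 CPM ± 25.6 (SD, n = 5) in *Ube3a+2* hippocampus, with a 95% interval of the log2 fold change of -0.27 to 1.55. Genotype and the libraries with markers of another region cannot be fully told apart here, since 3 of the 4 hippocampus libraries came from *Ube3a+2* mice.

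In cortex *Grm5* had the largest value, with 179.6 CPM ± 20.5 (SD, n = 5) in WT and 212.1 CPM ± 32.7 (SD, n = 5) in *Ube3a+2* mice. Its log2 fold change of 0.24 had an interval of 0.00298 to 0.483, an unadjusted p of 0.0476 and an adjusted p of 0.960 by edgeR's quasi-likelihood test. The highest *Grm5* values in cortex were those of mice 8 and 9, the cortex libraries with raised hippocampal markers, and without these the log2 fold change was 0.09. The lowest was that of WT mouse 2, without which it was 0.17.

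**Figure D3:**
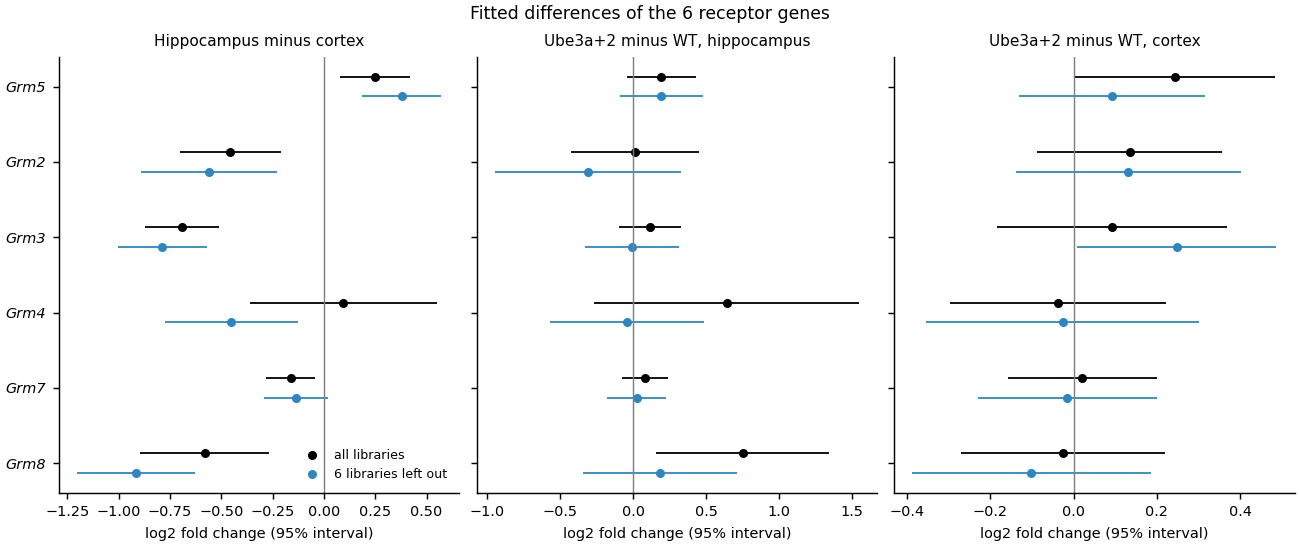
Fitted log2 fold changes with 95% intervals (x axes, a different scale in each panel) of the 6 receptor genes (y axis) between the tissues and between the genotypes in each tissue, over all libraries (black) and without the 6 libraries with markers of another region (blue). *Grm4* moves from 0.10 to -0.45 between the tissues, and *Grm8* from 0.75 to 0.18 between the genotypes in hippocampus.

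To compare the receptors with each other, CPM was divided by the kilobases of each gene's merged exons (RPKM). In hippocampus the order of the mean levels was *Grm5* with 22.7 RPKM ± 3.31 (SD, n = 10), *Grm3* with 19.3 ± 2.42, *Grm7* with 11.4 ± 0.918, *Grm2* with 9.41 ± 2.32, *Grm4* with 5.95 ± 3.36 and *Grm8* with 1.01 ± 0.442. Each neighbour in that order differed from the next over 10 mice, by two-sided exact sign-flip permutation tests of the ratio within a library, with adjusted p between 0.00326 and 0.026 over the 10 pairs of both tissues. The pairs and their direction were taken from these same libraries. The tests cover the spread between mice and not how well RPKM compares different genes. Without the 4 hippocampus libraries with markers of another region, 3 of the 5 neighbour pairs differed, and *Grm5* with *Grm3* and *Grm7* with *Grm2* did not (adjusted p = 0.139 and 0.117 by the exact permutation test over 6 mice). With 6 mice that test cannot give an unadjusted p below 0.03125, the value of each pair that differed. The ratio was 1.21 for *Grm5* to *Grm3* (1.17 over 10 mice) and 1.29 for *Grm7* to *Grm2* (1.24), so the lost calls do not show smaller differences.

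In cortex the order was *Grm3* with 31.2 RPKM ± 4.95 (SD, n = 10), *Grm5* with 19.1 ± 3.02, *Grm2* with 12.9 ± 1.66, *Grm7* with 12.8 ± 1.22, *Grm4* with 5.44 ± 0.771 and *Grm8* with 1.46 ± 0.173. *Grm3* and *Grm5* thus changed places between the tissues. In cortex 4 of 5 neighbour pairs differed, and *Grm2* and *Grm7* did not, with a ratio of 1.01 and *Grm2* higher in 5 of 10 libraries (exact permutation test, adjusted p = 0.734). With the longest transcript in place of the merged exons *Grm7* stood before *Grm2* in cortex, at 17.9 and 13.4 RPKM, and all 5 pairs differed there, so the place of these genes depends on the length used.

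**Figure D4:**
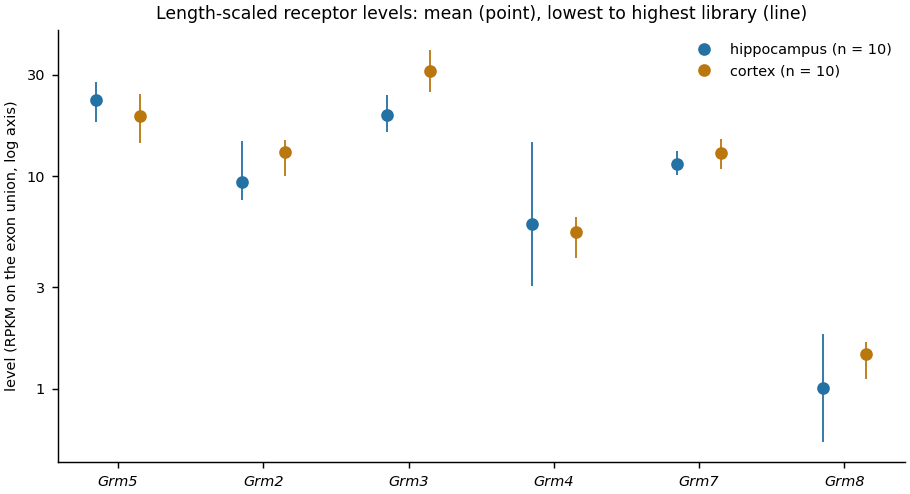
Level per length (RPKM on the merged exons, log y axis) of the 6 receptor genes (x axis) in hippocampus (blue) and cortex (orange), with the mean of 10 libraries as a point and the lowest to highest library as a line. *Grm5* leads in hippocampus at 22.7 RPKM and *Grm3* in cortex at 31.2 RPKM, and the widest line is *Grm4* in hippocampus, from 3.03 to 14.4 RPKM.

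The 6 levels summed to 69.8 RPKM ± 9.06 (SD, n = 10) in hippocampus and 82.9 RPKM ± 7.21 (SD, n = 10) in cortex, with hippocampus lower in 9 of 10 mice (two-sided exact sign-flip permutation test, p = 0.0117). In the 5 mice with neither library among the 6 with markers of another region the sums were 66.7 ± 8.67 and 79.5 ± 8.15 RPKM (SD, n = 5), lower in hippocampus in 4 of 5. *Grm3* made up 27.8% of that sum in hippocampus and 37.6% in cortex, a difference of -9.83 percentage points that was negative in 10 of 10 mice. *Grm5* made up 32.6% and 23.0%, a difference of 9.55 percentage points that was positive in 10 of 10 mice. Both differences had an adjusted p of 0.00586 by the exact permutation test, and the shares of *Grm2*, *Grm4*, *Grm7* and *Grm8* had adjusted p between 0.0977 and 0.258. In those 5 mice, too few for the exact test to reach 0.05, the difference was -8.68 percentage points for *Grm3* and 11.5 for *Grm5*. The share of *Grm4* turned from a difference of 1.73 percentage points over 10 mice to -1.32 in those 5, lower in hippocampus in 5 of 5.

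Around the receptors, a list of 47 genes of the pathway was read by role, and 44 of them could be tested. *Grk2* and *Grk3* were not found under these symbols, and *Grm6*, a receptor of retinal bipolar cells, had 1 count in 1 library and 0 in the other 19. Between the tissues 14 of the 44 were higher in hippocampus and 14 lower at an adjusted p under 0.05 by edgeR's quasi-likelihood test, against 25.3% higher and 25.6% lower among all genes. The median log2 difference was -0.01 for the 44. These counts were 15 and 14 without the 6 libraries, but the sets differed: 25 genes were called both ways, *Gnai1*, *Homer1* and *Fmr1* were lost and *Plcb4*, *Adcy5*, *Shank1* and *Arrb2* were gained. With the mouse as a block 16 were higher and 15 lower, the 28 and also *Kcnj6*, *Gnai3* and *Arrb2*. Between the genotypes 0 of 44 were called in either tissue by edgeR's quasi-likelihood test, with 4 at an unadjusted p under 0.05 in hippocampus and 1 in cortex.

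Of the 9 genes of the Gq arm, by which *Grm5* acts, 3 were higher in hippocampus and 1 lower, where 50.9% of all genes were called in either direction. *Dagla*, which makes the endocannabinoid 2-AG, was higher by 0.73 (132.4 to 205.7 CPM against 89.8 to 112.2 CPM). *Plcb1*, a phospholipase C, was lower by -0.82 (89.8 to 153.4 against 173.0 to 250.5 CPM). Neither gene overlapped between the tissues, as held for 9.27% of all genes, and both are named for the size of their difference.

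Of the 12 genes of the Gi/o arm, by which groups II and III act, 1 was higher in hippocampus and 7 were lower, against 25.3% and 25.6% of all genes. With the mouse as a block these were 2 and 8. *Adcy1*, a calcium-stimulated adenylyl cyclase, was lower by -1.12 (712.1 to 1376 against 1567 to 2748 CPM), and *Kcnj9*, a subunit of the potassium channels that Gi/o proteins open, was lower by -1.11 (28.1 to 50.3 against 63.6 to 106.1 CPM). *Kcnj3*, another subunit of these channels, was higher by 0.22. The other 5 that were lower were *Rgs4*, *Adcy8*, *Gnao1*, *Adcy2* and *Gnai1*, at between -0.50 and -0.11. Of these *Gnai1* was not called without the 6 libraries (-0.08, adjusted p = 0.283 by edgeR's quasi-likelihood test), while *Adcy5* then was (-0.25, adjusted p = 0.000162).

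Scaffolds and partners went both ways, with 4 of 11 higher in hippocampus (25.3% of all genes) and 3 lower (25.6%). *Homer3*, of the family that ties group I receptors to calcium stores, was higher by 1.51 (20.5 to 44.4 against 8.59 to 19.8 CPM), and *Shank2*, a postsynaptic scaffold that binds Homer, was lower by -0.72 (163.3 to 205.8 against 234.2 to 357.7 CPM). *Elfn2*, a synaptic adhesion protein that binds group III receptors, was higher by 0.46, while *Elfn1*, listed in the same role, was not called (0.07). Of the genes that handle glutamate, 5 of 7 were higher in hippocampus, against 25.3% of all genes, and none of the other 2 was called. *Slc17a6*, which loads glutamate into vesicles, was higher by 1.15, but it is itself one of the thalamus markers and reached 454.8 CPM in mouse 10, and without the 6 libraries its difference was 0.53. *Slc1a3*, a glutamate transporter of astrocytes and one of the astrocyte markers, was higher by 0.81. Of the remaining roles, *Arrb1*, which ends receptor signalling, was lower by -0.14. Among the genes of local translation, *Eef2k*, a kinase that slows elongation, was lower by -0.49 and *Ptpn5*, a phosphatase made on demand at synapses, was higher by 0.20.

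**Figure D5:**
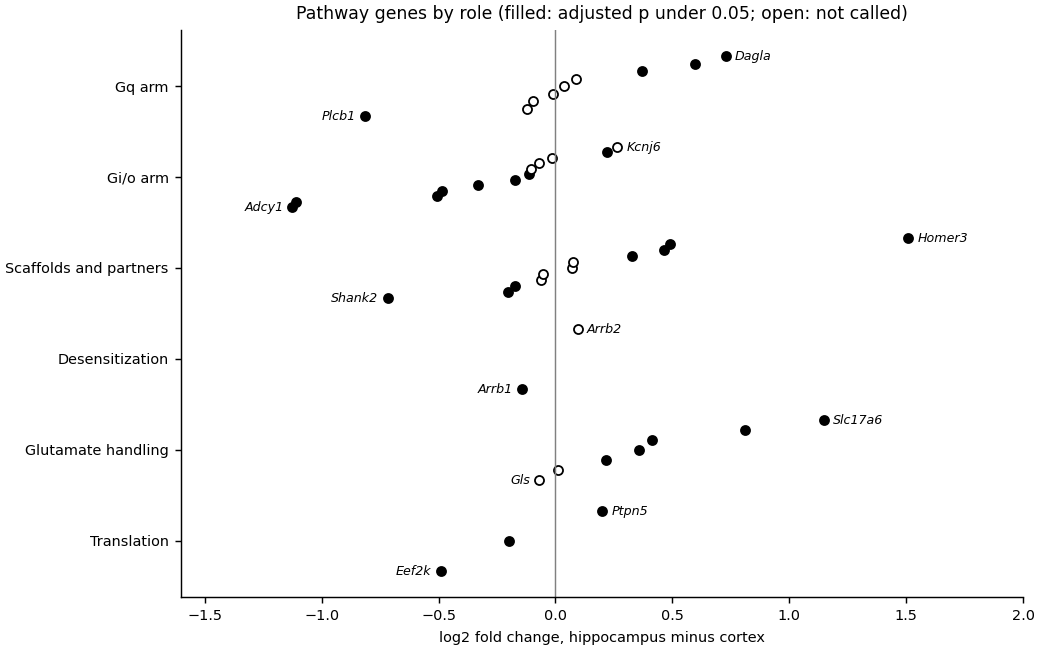
Log2 fold change between hippocampus and cortex (x axis) of the 44 pathway genes tested, by role (y axis), filled where the adjusted p is under 0.05 and open where it is not, with the genes at either end of a role named. The Gi/o arm reaches from *Adcy1* at -1.12 to *Kcnj6* at 0.26 (not called; called with the mouse as a block), and the scaffolds from *Shank2* at -0.72 to *Homer3* at 1.51.

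For each receptor called between the tissues, the genes most like it were found among 14333 genes by the mean absolute difference of centred log2 CPM over the 20 libraries. *Grm3* was closest to *Shank2*, at 0.0783, and to *Kif21b*, at 0.0888, where *Grm3* itself deviated from its own mean by 0.342 on average. *Grm2* was closest to *Htr5a* (0.111) and *Faim2* (0.116), and *Grm5* to *Tnks* (0.0779) and *Ptprg* (0.0898). *Grm7* was closest to *Slc39a10* (0.0658) and *Ubr2* (0.0672), where its own mean deviation was 0.120. *Grm8* was closest to *Edil3* (0.166) and *Igfbp5* (0.173), the loosest match of the 5. With a prior count of 0.5 in place of 2 the second gene for *Grm8* was 4930539E08Rik (0.176). The points share tissue, mouse and library, so this likeness is a description.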

How the data were processed

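Poly(A) RNA from hippocampus and cortex of 10 mice was sequenced as stranded libraries. The authors deposited whole-number read counts per gene for each of the 20 libraries, without normalization. Per the labels they used HISAT2 2.1.0, HTSeq 0.11.2 and build GRCm38, while the strand setting is not given in the sources used here. Genes took 69.7% to 81.2% of the reads of a library, and the rest was left out. Gene positions and lengths came from GENCODE M21, which held 99.1% of the identifiers. The members and lists were chosen with earlier results of these data known, and 1 gene of the pathway list is not reported here.

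Counts were fitted with edgeR 4.0.16 in R 4.3.3 (TMM, filterByExpr, robust quasi-likelihood test, Benjamini-Hochberg adjustment), by genotype within a tissue and by region over all 20 libraries, and the code was tested on simulated data. Intervals rest on the spread between the libraries of a group. The main region fit treated the 20 libraries as separate and did not use the pairing by mouse, which only the fit with the mouse as a block did. Both libraries of a mouse carry its number in the labels, and their deviations correlated across genes with a median of 0.215 (-0.0367 in mouse 4, above 0.1 in 9 of 10). Levels and shares were compared by exact sign-flip permutation tests. Alternatives were DESeq2 1.42.0, RLE scaling, no filter, removal of length and GC trends, labelled sex, the mouse as a block, transcript length and each mouse left out. In the pathway roles, the called genes with the largest difference in each direction are named. *Elfn2*, *Slc1a3*, *Gabra6*, *Kcnj9* and other genes outside that rule were added after their values were seen. Genes of like pattern are the 2 nearest of mean CPM of at least 1.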

Additional observations from a re-analysis of the deposited data

Results flagged for a closer look

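*Grm2* in the hippocampus of WT mouse 2 stood apart from its group, at 71.37 CPM where the other 4 mice had 38.4 to 40.4 CPM. The gap to the nearest of the others was 0.941 of the whole range of the group. Of the 24 groups of 5 libraries searched this was the only one in which that gap was above 0.71 of the range. Chance puts about 1 in 20 groups above that limit, a rate for the limit of 0.71 and not for a gap of 0.941. Whether chance gave this gap was not tested. In the cortex of the same mouse *Grm2* was the lowest of the 10 cortex libraries, at 48.8 CPM, in the library with the lowest total and the lowest share of reads on genes (69.7%).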

How the results depend on the processing

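The regional calls of *Grm2*, *Grm3*, *Grm5* and *Grm8* over both genotypes were kept under DESeq2, RLE scaling, no filter, removal of length and GC trends, the mouse as a block, and each mouse left out. The mouse as a replicate block moved the receptors called in *Ube3a+2* mice, and those past 0.5 on the log2 scale there, from 2 to 1, as did no filter on low counts, and moved *Grm4* over both genotypes to -0.00335 (-0.04735 with the length and GC trends also removed). The block added 3 pathway genes and changed no other call of a receptor than this and that of *Grm5* in WT mice (0.26, called). Removal of the length and GC trends gave 4 receptors called in WT mice and *Grm2* at -0.054 between the genotypes in hippocampus. With labelled sex as a covariate 2 genes were called in hippocampus and *Grm2* was -0.00063, and with DESeq2 5 genes were called in cortex. Shares of counts without length differed for 4 receptors, with *Grm7* at -0.77 percentage points.

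With each mouse left out in turn, the receptors called ran from 2 to 4 in WT mice and from 1 to 2 in *Ube3a+2* mice (likewise past 0.5 there), those past 0.5 over both genotypes from 1 to 3, and shares that differed from 2 to 4. Signs changed in that series for values that were not called: between the genotypes *Grm2* in hippocampus (-0.10 to 0.23) and *Grm4* (-0.118 to 0.044), *Grm7* (-0.0294 to 0.0884) and *Grm8* (-0.0816 to 0.0534) in cortex, between the tissues *Grm4* (-0.0925 to 0.213), and in the interaction *Grm2* (-0.24 to 0.16), *Grm3* (-0.0689 to 0.196) and *Grm5* (-0.101 to 0.063).

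Without the 6 libraries with markers of another region, chosen after seeing the data, 4 receptors were called in *Ube3a+2* mice. These calls rest on 2 hippocampus and 3 cortex libraries of that genotype. In hippocampus 3 neighbour pairs then differed. For the pairs no longer called there the ratios did not shrink. Fitted values that changed sign were, in hippocampus between the genotypes, *Grm2* (-0.31), *Grm3* (-0.0102) and *Grm4* (-0.0446), in cortex *Grm7* (-0.0154), between the tissues *Grm4* (-0.45, and -0.46 in *Ube3a+2* mice), and in the interaction *Grm3* (-0.25), *Grm4* (-0.0106) and *Grm5* (0.106), beside the share of *Grm4* (-1.32 percentage points). The cause of these changes was not tested. *Grm8* had the fewest reads of the 6 receptors, 93 to 298 counts a library.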
